A study of Mus musculus with 15 samples.

Results

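The circadian clock genes described here were 10 genes chosen by name, Arntl, Per1, Per2, Per3, Ciart, Bhlhe41, Nr1d1, Nr1d2, Dbp and Tef, matched by symbol to the Ensembl identifiers of a table of 55487 mouse genes. All 10 were found (Arntl as ENSMUSG00000055116.8, Per3 as ENSMUSG00000028957.12 and Dbp as ENSMUSG00000059824.12), and all 10 passed the filter on low counts that left 24990 genes to test. The clock of mammalian cells is a feedback loop of transcription. The activator ARNTL, also called BMAL1, pairs with CLOCK or NPAS2 on E-box sequences and drives the genes of its own repressors, the PER and CRY proteins, CIART and the BHLHE factors. In a linked loop the nuclear receptors NR1D1 and NR1D2 repress, and the ROR receptors activate, Arntl through the RORE sequence. The cerebellum has a daily rhythm of clock gene RNA of its own. DBP and TEF are output activators that bind D-box sequences, and in most mouse tissues Dbp RNA peaks at about the opposite time of day to Arntl RNA.

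RNA of mouse cerebellum was measured in 15 libraries by bulk RNA sequencing, 6 months after transplant by the labels. The mPPL-001 group (n = 5) was YG8JR mice, a model of Friedreich ataxia, that received 7 Gy of irradiation when 2.5 to 3 months old, followed by YG8JR hematopoietic stem and progenitor cells into which Cas9 and paired guide RNAs had been electroporated. The mock group (n = 4) was irradiated YG8JR mice given cells electroporated with the guides but no Cas9. Both transplanted groups had antibiotic water for 1 month. Neither the untreated YG8JR group (n = 3) nor the WT group (n = 3) had a transplant, so that all 12 libraries outside WT shared the YG8JR genotype. Each group was split between the labels' batches B (7 libraries) and A (8 libraries), with 2 and 3 mPPL-001, 2 and 2 mock, 1 and 2 YG8JR, and 2 and 1 WT libraries in B and A. The labels state neither what a batch is nor the hour of tissue collection. They do not state whether each library had its own animal. The p-values therefore reflect the scatter among these libraries, some of which may be technical.

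Library totals ran from 16847875 counts in WT replicate 2 to 38760543 counts. The tissue label was uneven against its markers. The summed level of 8 granule neuron markers was 1889 to 3733 CPM (counts scaled to library size) in batch B and 203 to 728 CPM in batch A, that of 8 Purkinje cell markers 4180 to 17450 CPM in B and 348 to 4946 CPM in A, and that of 8 brainstem neuron markers 56.3 to 374 CPM in B and 546 to 1791 CPM in A. No granule or Purkinje marker was at 0 in any library, and 3 of the 8 brainstem markers were at 0 in some library of batch B. A region score, the mean log2 CPM of granule and Purkinje markers minus that of brainstem markers, separated the batches without overlap. Y-linked transcripts summed to 1.63 CPM or less in 5 libraries (replicates 1 and 4 of mock, replicate 3 of YG8JR, replicates 1 and 2 of WT) and to 198 CPM or more in the other 10. In YG8JR against WT 36 of all genes passed with every library and 4096 without the library labelled WT replicate 3, so differences from WT are also given without it where that changes a call. It was the only WT library of batch A and the only one with Y-linked transcripts, at 251 CPM. Without it, differences from WT rest on the batch term estimated from the other groups and cannot be told apart from that of Y-linked content in WT.

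Promoter sequences are shown for 4 members because they carry the elements through which the clock loops act. They come from RefSeq on build GRCm38.p6, cover the 250 bases before the annotated start, and are written 5′ to 3′ on the strand of the gene with the motif in capitals. The E-box of Per1, at chr11:69098699-69098948 on the plus strand, lay 166 bases before the start. Ciart, at chr3:95882229-95882478 on the minus strand, had 3 E-boxes, 116, 58 and 44 bases before its start. Bhlhe41, at chr6:145865421-145865670 on the minus strand, had an E-box at 153 bases. Per3, at chr4:151044666-151044915 on the minus strand, held no E-box but a pair of D-boxes, 205 and 158 bases before its start.
Per1: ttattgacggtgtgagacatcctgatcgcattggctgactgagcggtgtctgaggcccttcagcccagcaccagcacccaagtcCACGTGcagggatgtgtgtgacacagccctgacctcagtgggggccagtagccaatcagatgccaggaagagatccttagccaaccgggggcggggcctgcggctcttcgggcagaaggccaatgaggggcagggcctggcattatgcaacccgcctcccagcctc
Ciart: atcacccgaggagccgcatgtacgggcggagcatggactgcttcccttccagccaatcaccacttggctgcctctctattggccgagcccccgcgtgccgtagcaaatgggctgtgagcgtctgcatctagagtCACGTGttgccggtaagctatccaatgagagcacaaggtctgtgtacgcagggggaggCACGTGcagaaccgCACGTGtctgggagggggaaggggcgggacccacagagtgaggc
Bhlhe41: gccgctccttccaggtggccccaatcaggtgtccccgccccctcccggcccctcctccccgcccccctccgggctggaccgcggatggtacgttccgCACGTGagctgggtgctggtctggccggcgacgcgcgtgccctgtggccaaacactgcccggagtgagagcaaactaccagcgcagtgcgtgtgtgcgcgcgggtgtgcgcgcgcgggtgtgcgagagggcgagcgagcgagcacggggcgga
Per3: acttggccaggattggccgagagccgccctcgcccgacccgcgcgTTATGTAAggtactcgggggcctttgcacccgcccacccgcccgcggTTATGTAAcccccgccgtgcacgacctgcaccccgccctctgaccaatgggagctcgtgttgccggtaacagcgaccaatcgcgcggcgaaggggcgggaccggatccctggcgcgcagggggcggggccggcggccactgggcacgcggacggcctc

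The RefSeq table had promoters for 9 of the 10 members, all but Per2. The E-box letters CACGTG, which read the same on both strands, occurred before 4 of these 9 members, Per1, Ciart, Bhlhe41 and Tef, against 6.02% of all 32851 promoters of the table. The percentages here count promoters, of which the 9 members had 12, and 5 of these 12 held the E-box. The variant E-prime-box CACGTT, searched on both strands, occurred before Nr1d1 alone, against 3.85% of all promoters. The D-box TTANGTAA, on both strands, occurred before Per3 alone, against 2.06%. Neither the RORE letters TAGGTCA or TGGGTCA, held by 5.38% of promoters, nor the CRE letters TGACGTCA, held by 1.55%, stood in these windows of the 9 members. A second annotated start of Per1 had none of the motifs. Such matches describe letters in a window and not occupied sites.

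Divided by exon length, the mean level over the 15 libraries was highest for the repressor Nr1d2 (39.5 ± 7.07 CPM per kb), Tef (31.5 ± 6.65) and Nr1d1 (29.3 ± 10.2). Per1 came next at 16.4 ± 4.82 CPM per kb and Dbp at 10.0 ± 2.77. Bhlhe41 (8.07 ± 0.695), Ciart (6.86 ± 1.94), Per2 (6.25 ± 2.00), Per3 (6.17 ± 2.32) and Arntl (4.45 ± 2.11) were lowest (CPM per kb, SD, n = 15 each). Between neighbours in this order the means differed by less than the larger SD, except between Nr1d2 and Tef, Nr1d1 and Per1, and Per1 and Dbp. Exons of 5 members share bases with a gene on the opposite strand. The longest overlap was 1280 bases of Bhlhe41 with Gm43909, then 539 bases of Dbp with Sphk2 and 263 bases of Nr1d1 with Thra. Whether counting used the strand is not given in the sources used here.

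Clock genes passed the test between the batches and not between the groups. Of 10 members 8 rose in batch B relative to batch A, 0 fell, and Dbp and Bhlhe41 did not pass. Over all genes tested 32.9% were called between the batches, 18% higher and 14.9% lower in B, by edgeR's quasi-likelihood test with Benjamini-Hochberg adjustment at an adjusted p under 0.05. The median log2 fold change of the members was 0.51, against 0.05 over all genes. Since this is bulk RNA, more cells of a type and more RNA per cell cannot be told apart.

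Arntl, the activator, had the largest difference among the members. In batch B it stood at 52.4 and 37.7 CPM in mPPL-001, 53.1 and 45.7 CPM in mock, 51.5 CPM in YG8JR and 43.9 and 57.8 CPM in WT libraries. In batch A it stood at 17.1, 27.5 and 23.5 CPM in mPPL-001, 18.4 and 16.4 CPM in mock, 14.9 and 24.7 CPM in YG8JR and 17.8 CPM in the library labelled WT replicate 3. Every library of batch B lay above every library of batch A, in each of the 4 groups. The log2 fold change of Arntl was 1.31 (SE 0.15, edgeR adjusted p = 2.5e-05). Within groups it was 0.99 in mPPL-001, 1.51 in mock, 1.38 in YG8JR and 1.51 in WT, where the YG8JR and WT values rest on a lone library in batch B and batch A.

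Nr1d1, which represses Arntl, was high in the same libraries. It stood at 133 and 108 CPM in mPPL-001, 130.5 and 108 CPM in mock, 121 CPM in YG8JR and 116 and 122 CPM in WT libraries of batch B. In batch A it stood at 42.6, 87.5 and 62.8 CPM in mPPL-001, 46.4 and 76.6 CPM in mock, 75.4 and 64.9 CPM in YG8JR and 57.2 CPM in the library labelled WT replicate 3. The batches did not overlap, and the log2 fold change was 0.92 (SE 0.15, edgeR adjusted p = 0.000293). The related repressor Nr1d2 ran from 236 through a median of 243 to 279 CPM in batch B and from 162 through 180.1 to 206 CPM in batch A, also without overlap (log2 fold change 0.46, edgeR adjusted p = 0.000918).

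The period genes, which encode the repressors of the core loop, rose as well. Per2 stood at 44.8 and 46.1 CPM in mPPL-001, 47.9 and 37.3 CPM in mock, 41.4 CPM in YG8JR and 50.0 and 58.6 CPM in WT libraries of batch B. In batch A it stood at 32.1, 35.0 and 30.7 CPM in mPPL-001, 36.5 and 21.8 CPM in mock, 20.1 and 18.5 CPM in YG8JR and 28.0 CPM in the library labelled WT replicate 3. The batches were separated by less than 1 CPM at their edges, between mock replicates 4 and 2, and the log2 fold change of Per2 was 0.71 (SE 0.13, edgeR adjusted p = 0.000644). Per1, which is also an acute glucocorticoid and activity response gene, ran from 87.9 through a median of 116 to 141 CPM in batch B and from 50.4 through 74.8 to 95.4 CPM in batch A (log2 fold change 0.64, edgeR adjusted p = 0.00412). Per3 had the smallest difference of the period genes, 0.43 (SE 0.15, edgeR adjusted p = 0.0426), and overlapped widely between batches.

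Of the repressors outside the period family, Ciart ran from 13.4 through a median of 17.6 to 24.5 CPM in batch B and from 7.18 through 12.7 to 18.0 CPM in batch A (log2 fold change 0.52, edgeR adjusted p = 0.0277). Bhlhe41, which binds E-boxes and represses them, stood at 43.6 to 60.4 CPM in batch B and 49.1 to 59.3 CPM in batch A. Its coefficient of variation was 11.0% in batch B, above those of Nr1d2 (6.29%) and Nr1d1 (8.26%), and 6.23% in batch A, the lowest of the members there. Between the batches its log2 fold change was -0.04 (SE 0.08, edgeR adjusted p = 0.727). Of the output factors, Tef ran from 232 through 290.5 to 344 CPM in batch B and from 167 through 204 to 288 CPM in batch A (log2 fold change 0.41, edgeR adjusted p = 0.0172).

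Dbp, the output factor with the widest daily swing in most tissues, did not pass between the batches. It stood at 36.6 and 41.4 CPM in mPPL-001, 28.9 and 35.3 CPM in mock, 34.7 CPM in YG8JR and 38.0 and 32.4 CPM in WT libraries of batch B. In batch A it stood at 17.4, 36.9 and 23.6 CPM in mPPL-001, 26.8 and 33.8 CPM in mock, 31.2 and 12.3 CPM in YG8JR and 20.9 CPM in the library labelled WT replicate 3. The batches overlapped, with a coefficient of variation of 11.4% in batch B and 33.2% in batch A. Its log2 fold change was 0.49 (SE 0.20, edgeR adjusted p = 0.0752).

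**Figure D1:**
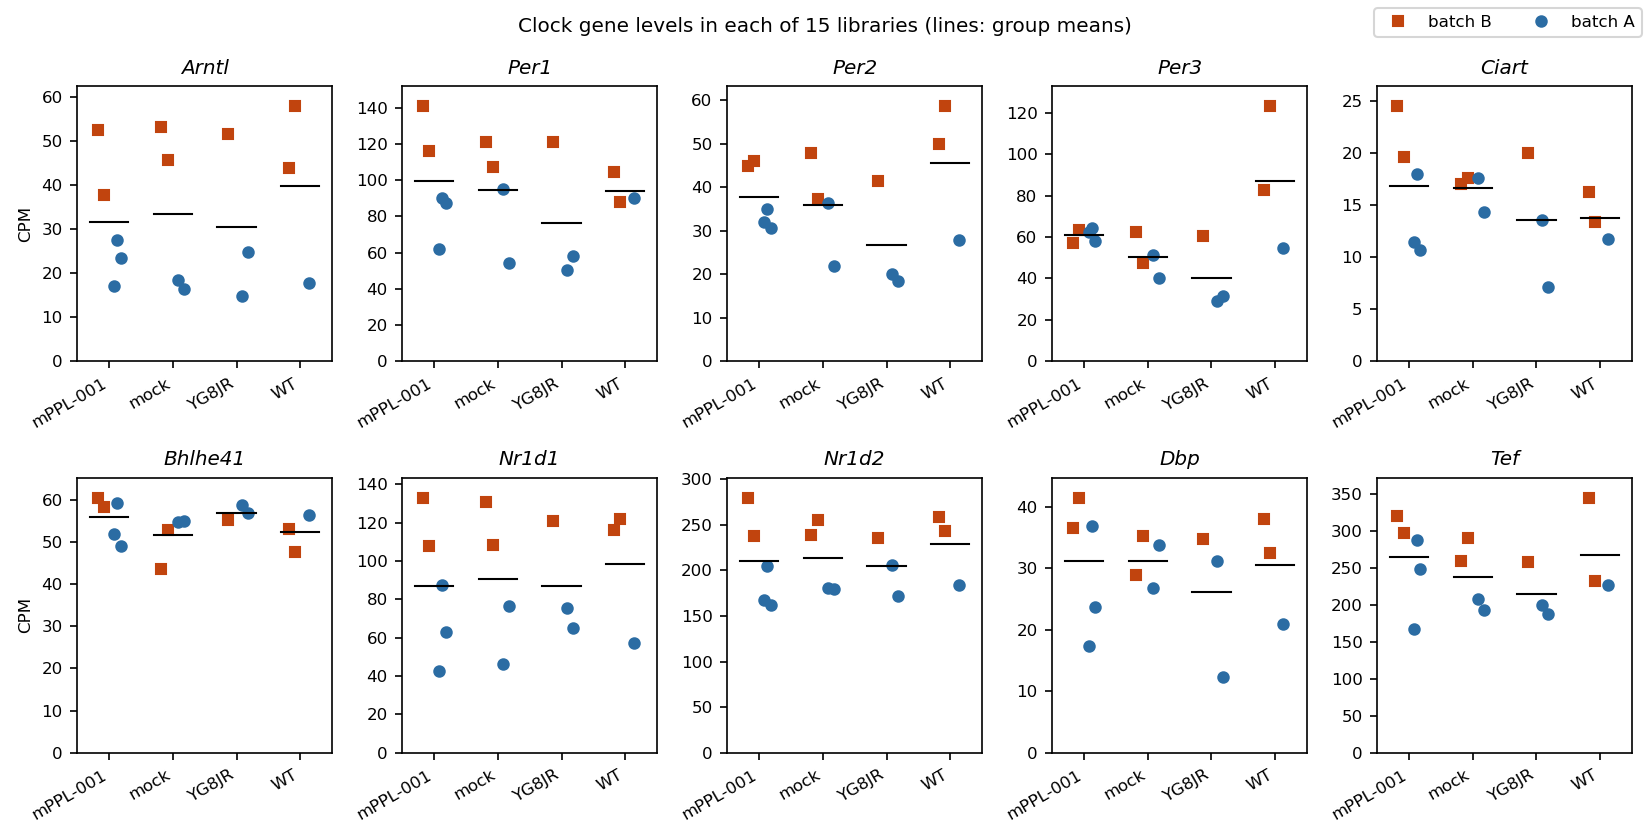
Level of each of the 10 clock genes in CPM (y axis, starting at 0) in every library, by group (x axis), with batch B as squares, batch A as circles and the group mean as a line. Arntl, Nr1d1, Nr1d2 and Per2 separate the batches in all groups, while Bhlhe41 stays between 43.6 and 60.4 CPM.

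Of 21 other clock genes 12 rose and 3 fell in batch B relative to batch A, with a median log2 fold change of 0.35. Rora, which activates Arntl and is also abundant in Purkinje cells, had the largest value, 2.17 (SE 0.23), with 506 to 1260 CPM in batch B and 131 to 436 CPM in batch A. The deubiquitinase gene Usp2 had 1.39, Nfil3, a repressor at D-boxes, 1.22, and the core repressor Cry1 1.21. Timeless had 0.87. Smaller values were those of Bhlhe40 (0.59), the output factor Hlf (0.52), Tipin (0.41), Cry2 (0.35) and the CLOCK inhibitor gene Cipc (0.21). The Arntl paralog Arntl2 fell by 1.23 on the log2 scale, the ubiquitin ligase gene Btrc by 0.31 and the period kinase gene Csnk1e by 0.28. Clock, the partner of ARNTL, had 0.16 (SE 0.09, edgeR adjusted p = 0.182).

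**Figure D2:**
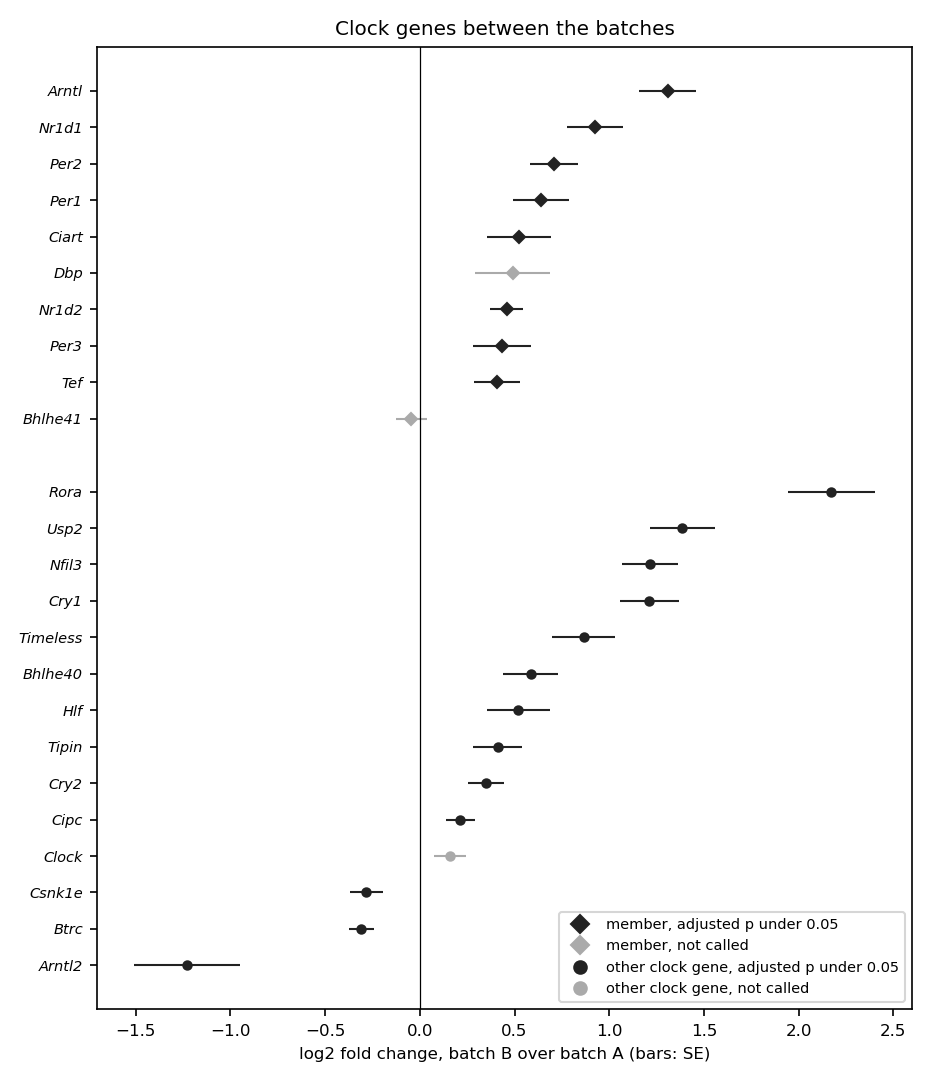
Log2 fold change of batch B over batch A (x axis) with its SE for the 10 members (diamonds) and the other clock genes named beside it (circles), dark where the edgeR adjusted p was under 0.05. Arntl at 1.31 leads the members and Rora at 2.17 the other genes drawn, and Bhlhe41 at -0.04 lies at 0.

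Cell type markers moved with the batch difference. All 8 granule and all 8 Purkinje markers rose in batch B (median log2 fold changes 3.54 and 3.92), all 8 brainstem markers fell (median -3.63) and 6 of 7 oligodendrocyte markers fell (median -0.88). Of the other marker lists, 4 astrocyte genes rose and 1 fell of 7, 4 of 7 microglia and 3 of 6 endothelial genes fell, and 0 of 8 choroid plexus genes passed. With the region score as a covariate 0 of 10 members and 0 of 24990 genes passed, and the log2 fold change of Arntl was 0.49 (SE 0.37) and that of Nr1d1 -0.19 (SE 0.28). Because the region scores of the batches did not overlap, brain region content and batch cannot be told apart here. Inside batch A, where the score varied from -2.58 to 3.31, the highest correlation with it was that of Tef (Pearson r 0.88, Spearman rho 0.79, n = 8, exact permutation p = 0.00335). Its adjusted p was 0.067 over 20 tests, and r was 0.74 without the pair of libraries farthest from the median score. Over the same family Nr1d1 had r 0.66 and Arntl r 0.49 in batch A, with exact permutation adjusted p = 0.243 and 0.377. In batch B, where the score varied from 5.43 to 8.48, Per2 (r 0.77), Arntl (0.74) and Nr1d1 (0.73) had the highest values, and Tef (-0.33), Dbp (-0.67) and Bhlhe41 (-0.65) were negative. None of the 20 passed adjustment.

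Among heat shock and cold-inducible genes 1 of 8 rose and 1 fell between batches (median 0.08). Of 10 glucocorticoid response genes 0 passed (median 0.50). Their summed level was higher in batch B in mPPL-001, mock and YG8JR. In WT it was lower, at 249 and 549 CPM in batch B against 1148 CPM in the library labelled WT replicate 3. Of 10 immediate early genes 1 rose and 2 fell (median -0.31). Of 5 nuclear RNAs 1 rose and 2 fell (median -0.80). The part of handling, hormone or RNA quality in the clock gene differences was not tested.

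Between groups no clock gene passed the test in any of the 6 comparisons, each fitted with a batch term. In mPPL-001 against mock, which asks what the edit adds to a transplant, 0 of 10 members and 0% of all genes were called by edgeR, and 534 genes but 0 members had an unadjusted p under 0.05. DESeq2 and voom with sample weights also called 0 members. All 10 members had positive values, as did 14323 of all 24990 genes. The median log2 fold change was 0.12 for the members, against 0.04 over all genes. The count of positive members was 6 without mPPL-001 replicate 3, within batch A or with the region score as covariate. It was 7 with RLE scaling or DESeq2, and 6 to 10 over all alternatives. Per3 had the largest, 0.34 (SE 0.19, edgeR adjusted p = 0.999), and Dbp the smallest, 0.01 (SE 0.25). In batch A the 3 mPPL-001 libraries lay at 58.0 to 64.6 CPM of Per3, above the mock libraries at 40.4 and 51.1 CPM, while in batch B the mPPL-001 libraries (57.2 and 63.5 CPM) overlapped the mock libraries (62.6 and 47.4 CPM). Of the other clock genes 0 of 21 passed, and Timeless, which works with Tipin at replication forks, had the smallest p (log2 fold change 0.53, edgeR adjusted p = 0.999). Tissue markers moved in this comparison too, with 0 passing in each list. Purkinje markers were positive in 8 of 8 (median log2 fold change 1.02), granule markers in 7 of 8 (0.53), brainstem markers in 2 of 8 (-0.60), choroid plexus markers in 0 of 8 (-1.40) and Y-linked transcripts in 4 of 4 (2.39). Their part in the clock gene values was checked only by refits with a covariate. The count of positive members was then 6 with the region score, 7 with Y-linked transcripts and within 6 to 10 with choroid plexus markers. Beyond these counts it was not tested.

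Against untreated YG8JR, 0 of 10 members passed after mPPL-001, where 0.032% of all genes were called. An unadjusted p under 0.05 was reached by 2 members, Per3 and Per2, and by 836 of all genes, and DESeq2 also called 0 members. Per3 averaged 61.2 ± 3.36 CPM in mPPL-001 (n = 5) and 40.4 ± 17.6 CPM in YG8JR (n = 3), with a log2 fold change of 0.64 (SE 0.21, edgeR adjusted p = 0.966). Per2 averaged 37.8 ± 7.21 CPM in mPPL-001 and 26.6 ± 12.8 CPM in YG8JR, with 0.53 (SE 0.18, edgeR adjusted p = 0.966). In batch A all 3 mPPL-001 libraries lay above both YG8JR libraries for both genes. In batch B both mPPL-001 libraries lay above the YG8JR library for Per2 (44.8 and 46.1 CPM, against 41.4 CPM) and on either side of it for Per3 (57.2 and 63.5 CPM, against 60.6 CPM). Within batch A the fitted values were 1.03 for Per3 and 0.76 for Per2, and within batch B, with 1 YG8JR library, -0.0076 and 0.13. Beside these differences microglia markers were negative in 7 of 7 (median -0.66, 6 with an unadjusted p under 0.05), Purkinje markers positive in 8 of 8 (0.90), granule markers positive in 7 of 8 (0.69) and brainstem markers negative in 6 of 8 (-0.79), with 0 passing in each list. With the region score as covariate neither Per3 nor Per2 passed. Neither had passed without it, so that fit cannot tell whether tissue content had a part. Over all 29 alternatives, that fit among them, Per3 ran from -0.0076 to 1.03 and Per2 from 0.13 to 0.76, and neither was called. The part of the microglia markers in these differences was not tested. In mock against YG8JR 0 of 10 passed, where 0.036% of all genes were called. At an unadjusted p under 0.05 there were 0 members and 389 of all genes, DESeq2 called 0 members, and the largest value was that of Per2 at 0.37 (SE 0.18, edgeR adjusted p = 1). Choroid plexus markers were positive in 8 of 8 there (median 2.20) and microglia markers negative in 6 of 7 (-0.43), with 0 passing.

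Untreated YG8JR against WT asks how the model itself differs, and 0 of 10 members were called there, beside 0.144% of all genes. Per3 had the largest difference between groups of any member. It stood at 60.6 CPM in batch B and at 28.9 and 31.6 CPM in batch A in YG8JR libraries, against 82.7 and 123 CPM in batch B and 54.7 CPM in batch A in WT libraries. In each batch YG8JR lay below WT, and over both batches the groups overlapped, since the YG8JR library of batch B lay above the library labelled WT replicate 3. The log2 fold change was -0.97 (SE 0.24, edgeR adjusted p = 0.11). Within batches it was -0.76 in B and -0.86 in A (edgeR adjusted p = 0.21 and 0.979), each with a lone library in 1 group. Per3 passed without the library labelled WT replicate 3 (-1.16, edgeR adjusted p = 0.0155), with DESeq2 (adjusted p = 0.0101), with voom with sample weights (adjusted p = 0.0338) and with no filter on low counts (edgeR adjusted p = 0.0133). In the first of these fits WT had libraries of batch B alone, all nearly without Y-linked transcripts. Without WT replicate 2, the shallowest library and the one highest in Per3, it was -0.69 (edgeR adjusted p = 0.282). That library also had the highest summed nuclear RNAs of all, 21670 CPM. Its summed heat shock and cold-inducible genes were the lowest of all, 926 CPM. The part of RNA quality in its Per3 level was not tested. Over all 29 alternatives the adjusted p of Per3 ran from 0.0101 to 0.979.

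Per2 was next in this comparison. It averaged 26.6 ± 12.8 CPM in YG8JR and 45.5 ± 15.8 CPM in WT (SD, n = 3 each), with a log2 fold change of -0.56 (SE 0.20, edgeR adjusted p = 0.138), and lay below WT in both batches. Per1 did not go the same way in both, at -0.73 within batch A and 0.33 within batch B. The remaining 7 members lay between -0.18 (Tef) and 0.16 (Nr1d1), and the median of all 10 was -0.03, against -0.04 over all genes. Of 24990 genes 6318 had an unadjusted p under 0.05 here, and 2 of the 10 members did. Of the other clock genes 0 of 21 passed. Rorb, an ROR receptor gene, had 0.90 (edgeR adjusted p = 0.0859) and Npas2, which can replace CLOCK, 1.18 (edgeR adjusted p = 0.113).

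Other tissue moved with this comparison. Granule markers were negative in 8 of 8 with 0 passing (median -1.37), brainstem markers positive in 7 of 8 with 0 passing (median 1.50), and microglia markers positive in 7 of 7 with 1 passing (median 0.99). Astrocyte (median 0.86), oligodendrocyte (0.67) and endothelial markers (1.00) were positive throughout with 0 passing, Purkinje markers were positive in 8 of 8 with 0 passing (0.53), and choroid plexus markers in 3 of 8 (-0.32). With the region score as covariate Per3 had -0.87 (edgeR adjusted p = 0.245), and with Y-linked transcripts as covariate -0.97 (edgeR adjusted p = 0.177). Heat shock and cold-inducible genes had 7 of 8 positive (median 0.38), glucocorticoid response genes 9 of 10 (0.47), immediate early genes 6 of 10 (0.14) and nuclear RNAs 1 of 5 (-0.65), with 0 passing in each.

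The transplanted groups were set against the same WT libraries, so these comparisons share them with the preceding. In mPPL-001 against WT 0 of 10 members passed, beside 0.232% of all genes, and in mock against WT 0 of 10, beside 0.412%. At an unadjusted p under 0.05 there were 0 members and 3946 of all genes in mPPL-001, and 1 member, Per3, and 6520 of all genes in mock. Per3 had -0.33 (SE 0.22, edgeR adjusted p = 0.428) in mPPL-001 and -0.67 (SE 0.22, edgeR adjusted p = 0.113) in mock. Mock passed for Per3 without the library labelled WT replicate 3 (-0.86, edgeR adjusted p = 0.0286), with DESeq2 (adjusted p = 0.0419) and within batch B (-0.90, edgeR adjusted p = 0.0379), where mPPL-001 passed too (-0.77, edgeR adjusted p = 0.0497). In batch A alone, where WT had a single library, the values were 0.17 for mPPL-001 and -0.26 for mock. Ciart had 0.39 (SE 0.24) in mPPL-001 and 0.37 (SE 0.25) in mock (edgeR adjusted p = 0.406 and 0.329), the largest positive values of the members against WT. Granule markers were negative in 5 of 8 in mPPL-001 (median -0.18) and in 8 of 8 in mock (-0.90), and Purkinje markers positive in 8 of 8 in both (1.65 and 0.68), with 0 passing. Of 6 endothelial markers 0 passed in mPPL-001 and 2 in mock, and of 7 microglia markers 0 and 1. With the region score as covariate Per3 passed in neither comparison. It had passed in neither main fit, so this cannot tell whether region content had a part. The part of the endothelial and microglia markers in the Per3 values was not tested. Of the other clock genes 0 of 21 passed in either comparison, and Rorb had 0.69 in both mPPL-001 and mock (edgeR adjusted p = 0.127 and 0.0773).

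**Figure D3:**
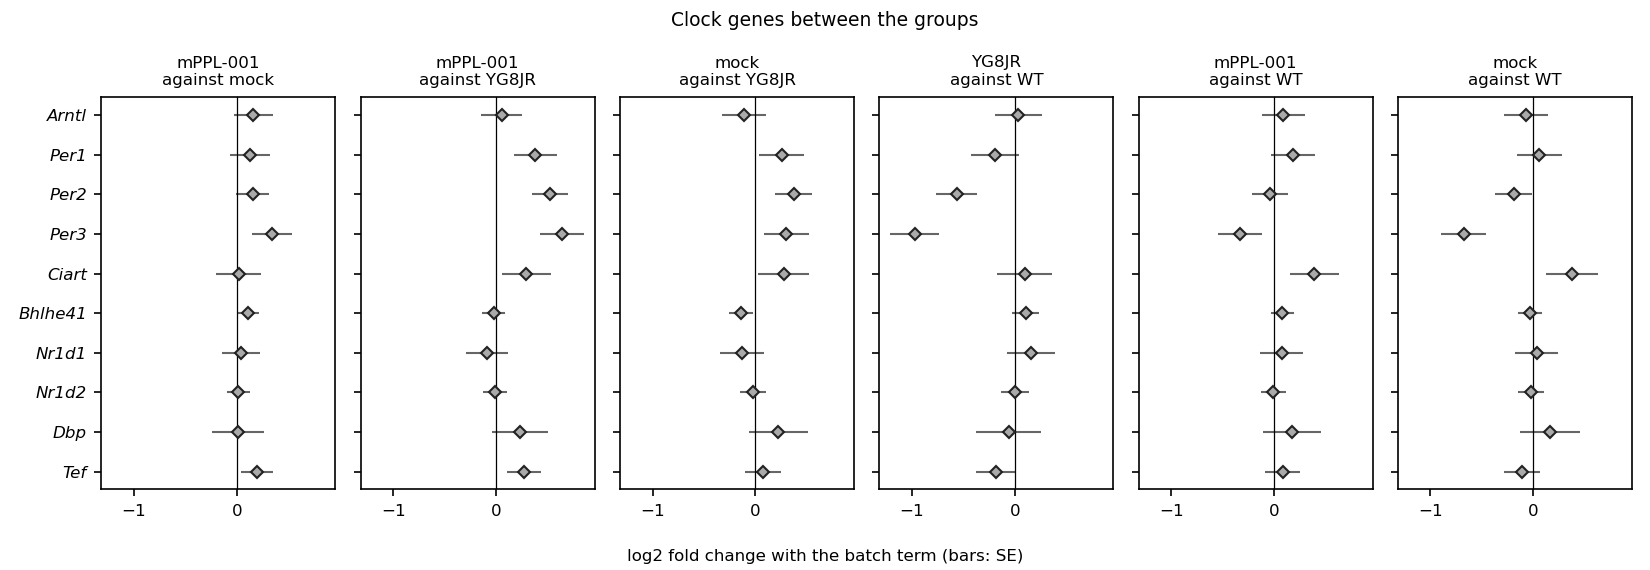
Log2 fold change (x axis) with its SE for the 10 clock genes in the 6 comparisons of groups, from 1 fit with a batch term, where the first-named group is the numerator. No value passed an edgeR adjusted p under 0.05, and Per3 lies farthest from 0, at -0.97 in YG8JR against WT.

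A test of all 4 groups together called 0 members, beside 0.156% of all genes, with the smallest unadjusted edgeR p at 0.0046 for Per3 (adjusted p = 0.246). Whether group differences differed between the batches was tested with interaction terms, which called 0 members and 0% of all genes. An unadjusted p under 0.05 was reached by 1695 genes (6.78%). Among these were 9 of 10 glucocorticoid response genes and 7 of 7 oligodendrocyte markers. They also included 5 of 6 endothelial markers and 4 of 4 Y-linked transcripts, while every other list had 0 or 1. The part of these lists in the clock gene values was not tested. Per3 had an unadjusted edgeR p of 0.0182 in this test (adjusted p = 0.721). Its log2 fold change of batch B over A was -0.03 (SE 0.19) in mPPL-001, 0.27 (SE 0.21) in mock, 1.00 (SE 0.25) in YG8JR and 0.91 (SE 0.27) in WT. The 5 mPPL-001 libraries held Per3 between 57.2 and 64.6 CPM, a narrower range than that of any other group.

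The ratio of Dbp to Arntl is given for each library as a description, because the hour of collection was not labelled. The region score had r 0.74 with Arntl and -0.67 with Dbp in batch B, and 0.49 and 0.63 in batch A, none passing adjustment. Clock phase and tissue content therefore cannot be told apart in the ratio. In batch B the ratio of CPM values ran from 0.544 through a median of 0.698 to 1.10 (n = 7), and in batch A from 0.498 through 1.26 to 2.09 (n = 8), so the batches overlapped. By group it was 0.698 and 1.10 in mPPL-001, 0.544 and 0.773 in mock, 0.674 in YG8JR and 0.867 and 0.561 in WT libraries of batch B. In batch A it was 1.02, 1.34 and 1.01 in mPPL-001, 1.46 and 2.06 in mock, 2.09 and 0.498 in YG8JR and 1.18 in the library labelled WT replicate 3. The highest and the lowest ratio of all 15 libraries were thus both of untreated YG8JR in batch A. YG8JR replicate 3 had the lowest Dbp and Ciart of all libraries (12.3 and 7.18 CPM) with 24.7 CPM of Arntl, and YG8JR replicate 2 had 31.2 CPM of Dbp and 13.6 CPM of Ciart with the lowest Arntl of all, 14.9 CPM. Y-linked transcripts were nearly absent from the replicate 3 library and present in the replicate 2 library. In replicates 2 and 3 the summed granule markers were close, at 257 and 283 CPM. Other tissue content differed, with Purkinje markers at 856 and 430 CPM and choroid plexus markers at 971 and 401 CPM. The region score was -0.99 in replicate 2 and -2.58 in replicate 3. The part of tissue content in these ratios was not tested.

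Correlations between members were computed within each batch over 45 pairs, 90 tests in all, on log2 CPM. No pair passed after Benjamini-Hochberg adjustment, with exact permutation tests of Pearson r or of Spearman rho. Groups were mixed within a batch, so differences between groups enter these values, and tissue content varied within a batch too. In batch B the region score had r 0.74 with Arntl and -0.67 with Dbp, neither passing adjustment. Arntl and Dbp ran opposite to each other in batch B (Pearson r -0.79, Spearman rho -0.86, n = 7, exact permutation p = 0.0345, adjusted p = 0.388), and r was -0.41 without the pair of libraries farthest from the median Arntl level. In batch A the same pair had r -0.17 (rho -0.10, n = 8, exact permutation p = 0.687). Arntl and its repressor Nr1d1 had a positive r in both batches, 0.77 in B (exact permutation p = 0.049, adjusted p = 0.441) and 0.30 in A. Without the 2 libraries farthest from the median Arntl level r was 0.63 in B and turned to -0.24 in A. Of the 9 pairs with Arntl, 5 had a negative r in batch B and 3 in batch A.

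Per2 and Per3 had the highest Pearson r of any pair in both batches, though by Spearman rho 3 pairs lay above them in batch A, Ciart with Dbp, Per1 with Per2 and Bhlhe41 with Nr1d2. Pearson r was 0.94 in batch B (rho 0.93, n = 7, exact permutation p = 0.00198) and 0.91 in batch A (rho 0.74, n = 8, exact permutation p = 0.00422), with an adjusted p of 0.129 in each. Without the pair of libraries farthest from the median Per2 level r was 0.72 in B and 0.75 in A. Per1 joined them in batch A (r 0.82 with Per2 and 0.75 with Per3) but had negative values in batch B (-0.53 and -0.73). Without the 2 libraries farthest from the median Per1 level, the values in batch B were 0.036 and -0.17, so the negative relation rests on those libraries, and in batch A they were 0.69 and 0.54. In batch B Per1 instead went with Ciart (r 0.94, rho 0.79, exact permutation p = 0.00714, adjusted p = 0.129). Without the 2 libraries farthest from the median Per1 level that r was 0.59, and in batch A, with every library, Per1 and Ciart had r 0.36. Ciart went with Dbp in batch A (r 0.88, rho 0.86, exact permutation p = 0.00506, adjusted p = 0.129) and had r 0.39 in batch B, or 0.59 in A and 0.32 in B without 2 libraries. Bhlhe41 went with Nr1d2 in batch A (r 0.87, exact permutation p = 0.00665, adjusted p = 0.129) and with Dbp in batch B (r 0.85, exact permutation p = 0.0141, adjusted p = 0.211), at 0.80 and 0.82 without 2 libraries. Of the 45 pairs 25 had the same sign in both batches, 19 of them positive.

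**Figure D4:**
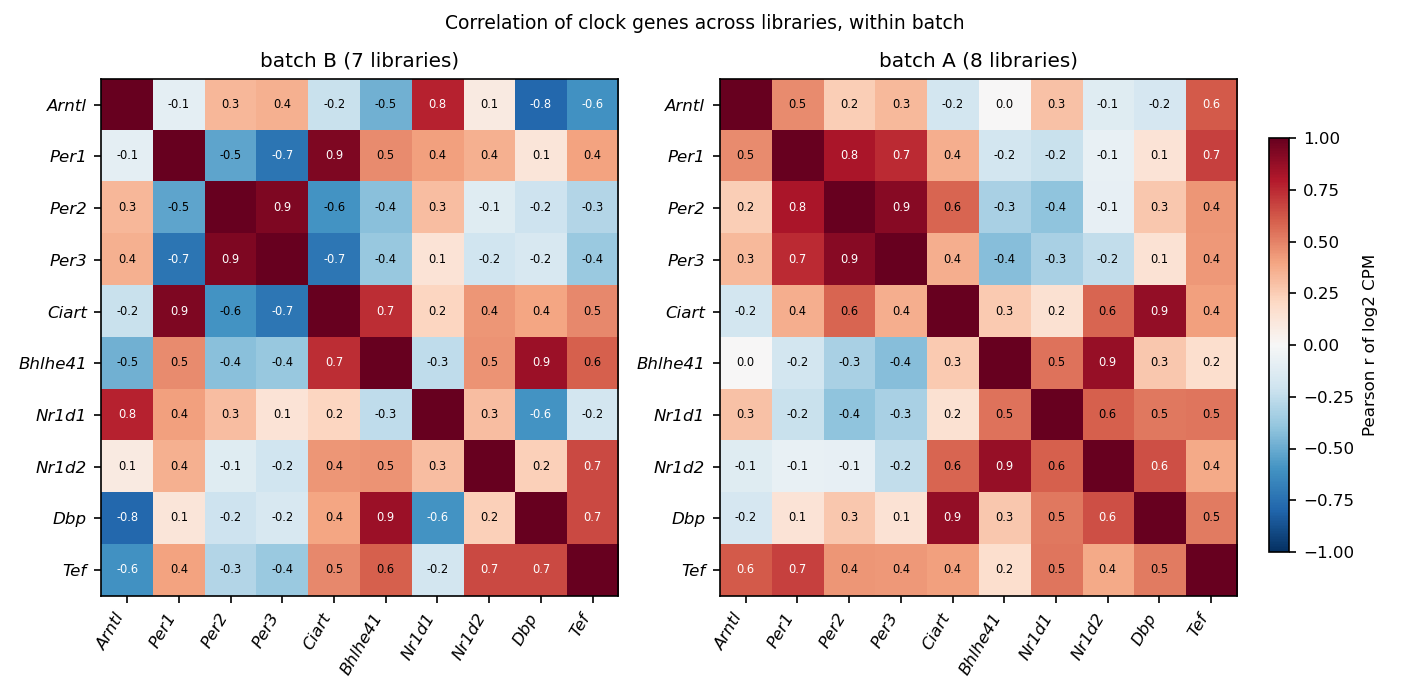
Pearson r of log2 CPM for each pair of the 10 clock genes within batch B (7 libraries) and batch A (8 libraries), from blue (-1) to red (1). Per2 with Per3 is red in both, and Arntl with Dbp is blue in batch B (-0.79) and near 0 in batch A (-0.17).

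**Figure D5:**
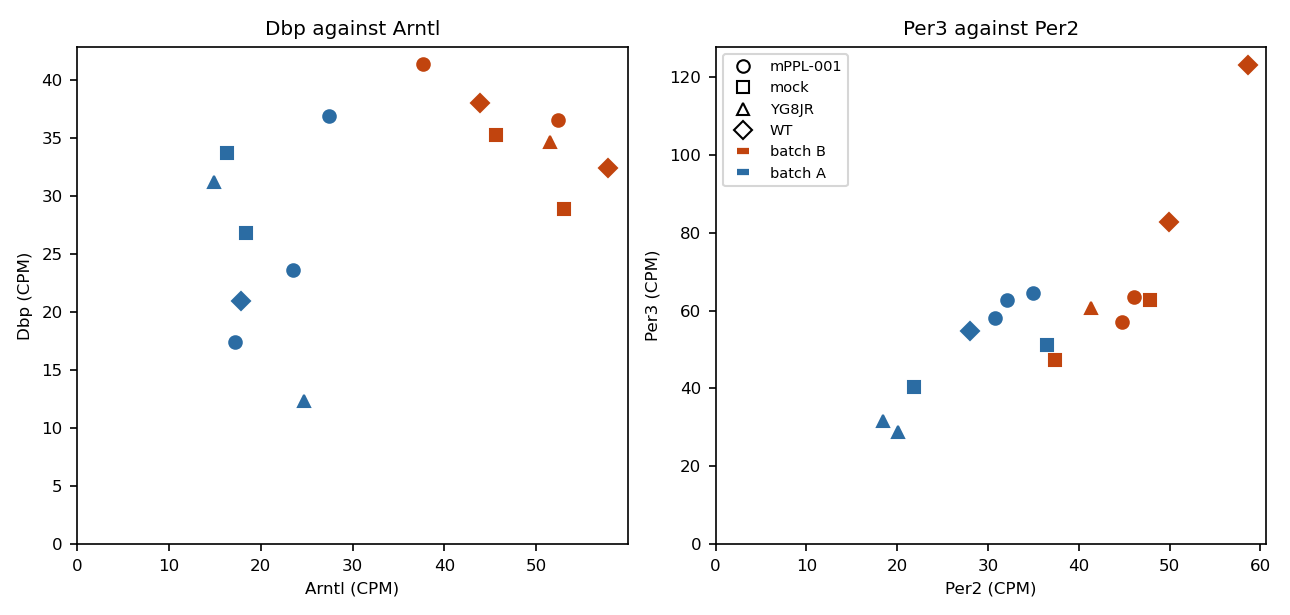
Dbp against Arntl and Per3 against Per2 in CPM, 1 point per library, with the group as the marker and the batch as the colour. Batch B lies to the right of batch A in Arntl without overlap, and Per3 rises with Per2 in both batches up to WT replicate 2 at 123 CPM.

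The genes nearest to Dbp and Arntl were ranked by Pearson r over the 15 libraries after centring within batch, as a description. The nearest to Dbp were Tipin (0.83), a clock-linked replication fork gene, Acbd4 (0.83), Zfand2b (0.82), Fen1 (0.81), a flap endonuclease gene, and Rbm46 (0.81), with Ciart at rank 10 (0.78). Fen1 and Rbm46 were low, with means of 0.31 and 0.53 CPM. Within batch B r was 0.66 for Tipin, 0.64 for Zfand2b and 0.50 for Rbm46, but 0.06 for Acbd4 and -0.08 for Fen1. Clock had -0.49 with Dbp and -0.81 within batch A. The nearest to Arntl were Galnt13 (0.88), Zbtb21 (0.86), Rsf1 (0.86), Slc22a15 (0.86) and Trio (0.85), each at 0.77 or more in both batches, and no clock gene was among them. Clock had 0.42 with Arntl. The libraries behind these values share their groups and their tissue content, which the centring did not remove.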

How the data were processed

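The authors deposited raw whole-number read counts for each gene in each library. Per the submitters' processing notes, reads were processed with STAR on GRCm39. For the counter, its strand setting and the annotation, the entry is: not given in the sources used here. Symbols came from GENCODE M21 (GRCm38) for 99.4% of identifiers, as did exon lengths and overlaps. The members and gene lists were chosen with earlier results of these data known. CPM used TMM-scaled library sizes. The main test was edgeR 4.0.16 (R 4.3.3), quasi-likelihood, robust, with group means and a batch term over 15 libraries (minimum count 10, minimum total 15), and calls at an adjusted p under 0.05. Log2 CPM had a prior count of 2. Alternatives used DESeq2 1.42.0, limma 3.58.1 (voom) and other settings. All members were named, and other clock genes past the threshold or with the smallest p. Scripts were tested on simulated data. Of the 22 replicate pairs within groups, the closest differed by a chi-square of 23.2 per gene, so none was counted as 1 sample. Results for some items, other clock genes among them, are not reported here, though counts over a list include them.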

Additional observations from a re-analysis of the deposited data

How the results depend on the processing

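The count of clock genes called in batch B against batch A was 8 and moved to 4 with the replicate number as a block (Arntl, Per2, Nr1d1 and Nr1d2 kept their call) and to 0 with the region score as covariate, where Nr1d1 turned to -0.19 and Tef to -0.013. Leaving out each library gave 5 to 8, with 5 without mock replicate 3 and 5 without WT replicate 1. Counts between groups of 0 moved to 1, Per3 each time. This held in YG8JR against WT with no low-count filter (1), voom (1), DESeq2 (1) and without the library labelled WT replicate 3 (0 to 1 over all left-out libraries). In mock against WT it held with DESeq2 (1), within batch B (1) and without the same library (0 to 1), in mPPL-001 against WT within batch B (1), and among the 4 groups with no low-count filter (1) and DESeq2 (1). DESeq2 called 2163 of 24990 genes in YG8JR against WT, edgeR 36. The causes were not tested. Other counts stayed within 1.5 times, among them those with both WT replicates 2 and 3 left out, an alternative chosen after seeing the data. Correlations past the threshold stayed at 0 with Spearman rho, RLE scaling and without 2 libraries. Same-numbered libraries of different groups did not deviate together (5 of 19 pairs had r above 0.1, from -0.41 to 0.36), so the numbers were not taken as pairs. Uncalled values changed sign most often in mPPL-001 against mock (53 of 290). Groups of 3 libraries, a common dispersion of 0.11 and WT replicate 2 at 16847875 counts limit what could be detected.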

Other observations

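Within a batch the highest levels of the clock genes fell mostly in few libraries, and the lowest levels were more spread. In batch A, mPPL-001 replicate 3 had the highest level of 7 of the 10 members, and it also had the highest summed granule and Purkinje markers of that batch, 728 and 4946 CPM. In batch B, mPPL-001 replicate 2 had the highest level of 5 members and the lowest of 0. WT replicate 2 had the highest level of 3 members (Arntl, Per2 and Per3) and the lowest of 3 (Per1, Ciart and Tef). In YG8JR replicates 2 and 3 the lowest level of batch A was found for 3 members each, and in mPPL-001 replicates 1 and 4 for 2 each. The lowest level of batch B was found for 2 members each in mPPL-001 replicate 5 and mock replicates 1 and 4. YG8JR replicate 1 had it for 1 member. The part of tissue content in these extremes was not tested.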
